A study of Mus musculus with 2 samples.

Results

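Promoter regions with a DNase I peak in both of 2 libraries labelled as thymus were described here. DNase-seq maps chromatin that the nuclease DNase I can cut. Overlapping peaks of the shorter of the deposited peak lists of each library were merged (at least 1 bp of overlap). A merged region was kept when it held a peak of both libraries and its midpoint lay within 1 kb of any of 132629 transcript starts of the GENCODE vM21 annotation. This left 18126 regions, 51.5% of the 35217 regions open in both libraries and 17.1% of all 105707 merged regions. The members were thus chosen by the peak calls of both libraries, and their peak signals are given as a description without a test.

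The series holds 2 libraries of 1 group, labelled as thymus tissue of male mice aged 36 days. The mice were of B6CASTF1/J, the first-generation cross between the strains C57BL/6J and CAST/EiJ, and no treatment is given. Per the labels they are biological replicates 2 and 1 (below, the replicate 2 library and the replicate 1 library), yet a single donor identifier is given for both, and it is not known how many mice they came from. Coordinates are on mm10, the GRCm38 assembly, which represents the C57BL/6J alleles.

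A promoter is the sequence around a transcript start, where RNA polymerase II and the general transcription factors assemble. Active promoters are kept free of nucleosomes over a short stretch, and many promoters of widely used genes lie in CpG islands, sequences rich in unmethylated CpG. A protein bound to DNA protects its own bases from DNase I, which leaves a short dip in cutting called a footprint.

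The libraries did not show the same cell types in their promoters. Of all protein-coding genes, 59.9% had a promoter peak in the replicate 2 library and 62.8% in the replicate 1 library. Of 14 markers of thymocytes, the T cell precursors that make up most of the thymus, 14 had a promoter peak in the replicate 2 library and 2 (Tcf7 and Lck) in the replicate 1 library. Of 14 markers of pancreatic acinar cells, which secrete digestive enzymes, 3 had a promoter peak in the replicate 2 library and 13 in the replicate 1 library. The library labelled replicate 1 thus went against its tissue label at the promoters of the Cd3, Cd4, Cd8 and Rag genes, which had no peak there. Promoter regions shared by both libraries hold 2 of the 14 thymocyte markers (Tcf7 and Lck) and 3 of the 14 acinar markers (Cela1, Rbpjl and Bhlha15). For thymic epithelium the counts were 3 of 6 in the replicate 2 library and 4 of 6 in the replicate 1 library, for B cells 2 of 6 in each, for myeloid cells 1 and 0 of 5, and for endothelium 2 and 1 of 4, in the same order. Signals, percentiles and footprints are given below for each library on its own for this reason, apart from means over both that are named as such. The part of cell makeup in any difference between the libraries was not tested.

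The sequences under these regions are shown first, because the rule did not use the motifs that footprints cover. Most of these motifs lie in a small share of the members. Each stretch below has 61 bases centred on a motif match. The region holding it had the highest mean signal percentile among single protein-coding promoters with that match in a footprint of both libraries, with at most 30 bases of untranslated region. Capitals mark the bases within a footprint of both libraries, and each stretch is written 5′ to 3′ on the strand of its gene. The order runs from the motif with the highest mean footprint ratio (NRF1) to that with the lowest of those shown (TCF/LEF).
Nup107, NRF1, chr10:117792735-117792795, minus strand: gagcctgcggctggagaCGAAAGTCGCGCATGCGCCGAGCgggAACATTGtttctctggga
Ube2h, CRE, chr6:30304530-30304590, minus strand: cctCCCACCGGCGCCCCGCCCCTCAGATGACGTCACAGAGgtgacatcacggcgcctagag
Bicdl1, RFX, chr5:115653111-115653171, minus strand: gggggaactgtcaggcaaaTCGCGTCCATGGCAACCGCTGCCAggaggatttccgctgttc
Mpc2, Kaiso, chr1:165460556-165460616, plus strand: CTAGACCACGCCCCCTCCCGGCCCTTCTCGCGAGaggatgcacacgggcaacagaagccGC
Adss, THAP11/ZNF143, chr1:177796796-177796856, minus strand: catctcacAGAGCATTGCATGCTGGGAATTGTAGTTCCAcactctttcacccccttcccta
Mplkip, SP/KLF, chr13:17694907-17694967, plus strand: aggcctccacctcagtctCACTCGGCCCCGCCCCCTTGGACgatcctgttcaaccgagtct
Eif3e, YY1, chr15:43282661-43282721, minus strand: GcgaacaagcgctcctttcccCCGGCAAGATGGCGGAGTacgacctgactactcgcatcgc
Nfat5, ETS, chr8:107293379-107293439, plus strand: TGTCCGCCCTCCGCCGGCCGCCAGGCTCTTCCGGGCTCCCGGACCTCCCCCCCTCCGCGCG
Rragc, E-box, chr4:123917294-123917354, plus strand: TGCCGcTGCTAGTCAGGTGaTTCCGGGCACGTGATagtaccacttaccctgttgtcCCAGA
Fbh1, NFY, chr2:11777600-11777660, minus strand: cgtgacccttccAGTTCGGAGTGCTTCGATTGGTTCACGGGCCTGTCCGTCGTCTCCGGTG
Ccdc9, TCF/LEF, chr7:16286311-16286371, minus strand: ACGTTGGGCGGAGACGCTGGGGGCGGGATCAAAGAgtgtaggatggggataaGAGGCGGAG

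Of these 11 stretches, 6 lay outside annotated genes and 3 (Bicdl1, Mplkip and Ccdc9) in introns. The Ube2h stretch had 10 bases of untranslated region, and the Eif3e stretch 27 bases of untranslated and 32 bases of coding sequence. Nup107 encodes a nuclear pore subunit, Ube2h a ubiquitin-conjugating enzyme, Bicdl1 an adaptor of the motor protein dynein and Mpc2 a mitochondrial pyruvate carrier subunit. Adss encodes adenylosuccinate synthase, Eif3e a translation initiation factor subunit, Nfat5 a transcription factor of osmotic stress, Rragc a GTPase of nutrient sensing and Fbh1 a DNA helicase.

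For 4 of the 24 genes with the largest differences in rank between the libraries, picked after their values were seen, the sequence is shown as 160 bases around the region's midpoint, once with the footprints of each library in capitals. Itga4 and Dock10 ranked higher in the replicate 2 library, Bcl9l and Zfp37 in the replicate 1 library. At each gene, capitals are more numerous in the library where the region ranked higher.
Itga4, library labelled replicate 2, chr2:79255241-79255400, plus strand: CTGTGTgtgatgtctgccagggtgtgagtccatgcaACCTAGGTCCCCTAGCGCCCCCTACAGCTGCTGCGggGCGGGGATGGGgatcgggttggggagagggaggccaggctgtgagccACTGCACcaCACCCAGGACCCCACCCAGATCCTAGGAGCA
Itga4, library labelled replicate 1, chr2:79255241-79255400, plus strand: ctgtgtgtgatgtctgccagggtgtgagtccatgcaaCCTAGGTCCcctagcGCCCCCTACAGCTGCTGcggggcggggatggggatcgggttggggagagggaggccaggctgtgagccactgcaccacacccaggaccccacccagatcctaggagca
Dock10, library labelled replicate 2, chr1:80758521-80758680, minus strand: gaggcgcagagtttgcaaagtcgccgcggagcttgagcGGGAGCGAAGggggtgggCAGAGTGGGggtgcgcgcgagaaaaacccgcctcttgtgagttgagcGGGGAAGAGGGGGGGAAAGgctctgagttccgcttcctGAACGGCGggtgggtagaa
Dock10, library labelled replicate 1, chr1:80758521-80758680, minus strand: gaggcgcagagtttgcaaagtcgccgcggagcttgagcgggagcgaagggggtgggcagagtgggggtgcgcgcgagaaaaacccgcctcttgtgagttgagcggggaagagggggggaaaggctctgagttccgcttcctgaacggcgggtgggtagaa
Bcl9l, library labelled replicate 2, chr9:44487641-44487800, plus strand: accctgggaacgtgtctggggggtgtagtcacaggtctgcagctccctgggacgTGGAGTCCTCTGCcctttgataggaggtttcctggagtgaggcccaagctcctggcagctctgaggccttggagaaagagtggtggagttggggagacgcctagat
Bcl9l, library labelled replicate 1, chr9:44487641-44487800, plus strand: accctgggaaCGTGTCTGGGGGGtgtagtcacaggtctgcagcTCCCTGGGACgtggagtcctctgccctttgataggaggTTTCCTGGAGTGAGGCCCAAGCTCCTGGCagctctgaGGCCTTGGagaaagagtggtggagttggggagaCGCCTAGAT
Zfp37, library labelled replicate 2, chr4:62208421-62208580, minus strand: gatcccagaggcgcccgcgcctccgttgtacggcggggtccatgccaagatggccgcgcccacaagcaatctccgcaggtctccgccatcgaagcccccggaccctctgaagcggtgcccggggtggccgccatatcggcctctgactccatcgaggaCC
Zfp37, library labelled replicate 1, chr4:62208421-62208580, minus strand: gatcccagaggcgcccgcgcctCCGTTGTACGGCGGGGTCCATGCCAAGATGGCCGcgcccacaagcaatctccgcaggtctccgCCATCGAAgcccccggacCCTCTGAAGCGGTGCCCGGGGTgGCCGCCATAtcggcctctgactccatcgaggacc

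In these stretches, footprints covered 90 bases at Itga4 in the replicate 2 library and 26 in the replicate 1 library, and all 26 lay in footprints of both. At Dock10 the footprints covered 46 and 0 bases in the same order. At Bcl9l they covered 13 bases in the replicate 2 library and 69 in the replicate 1 library, and at Zfp37 2 and 73 bases, with no base shared at either gene. The Itga4 stretch lay outside genes, and the Bcl9l stretch lay in an intron. The Zfp37 stretch held 26 bases of untranslated and 56 bases of coding sequence.

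Motifs were searched as exact letters on both strands in the 300 bases around each midpoint. Of 26 motifs, 12 had more matches per kb inside footprints than in the rest of the member regions in both libraries, and 10 had fewer in both. Averaged over the libraries, the ratio of the densities was highest for NRF1 (GCATGCGC, bound by nuclear respiratory factor 1), at 20.2 in the replicate 2 library and 24.7 in the replicate 1 library. Of its matches in member regions, 1088 lay in and 195 outside a footprint of the replicate 2 library, and 1104 in and 179 outside one of the replicate 1 library. The cAMP response element (CRE, TGACGTCA, bound by CREB and ATF factors) followed with ratios of 21.2 and 15.8. RFX (GTTGCCATG) had 8.27 and 10.2, Kaiso (CTCGCGAG) 4.38 and 4.97, and the THAP11/ZNF143 motif (ACTACAATT) 3.70 and 4.27.

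SP/KLF (GGGCGG, the GC box of the SP and KLF zinc finger proteins) was the most common motif of the 26, found in 62.3% of members. Its ratios were 4.04 in the replicate 2 library and 3.74 in the replicate 1 library. YY1 (AAGATGGCG) had 3.03 and 4.35, and ETS (CCGGAAG, bound by ETS family factors) 3.29 and 2.69. The E-box of MYC and USF factors (CACGTG) had 1.602 and 2.07, NFY (CCAAT) 1.24 and 1.72, and TCF/LEF (CTTTGAT) 1.26 and 1.09. When matches within 10 bp of a footprint were counted as inside, TCF/LEF fell below 1 in both, at 0.958 and 0.699. That count also gave NRF1 13.4 and 14.8, RFX 4.74 and 4.84, and THAP11/ZNF143 5.88 and 6.27. The twelfth was a shortened CRE (TGACGT), whose matches include those of the full CRE. Motifs lower in footprints in both libraries included RUNX (TGTGGT) at 0.741 and 0.662, the GATA factor motif, spelled AGATAA, at 0.362 and 0.395, AP-1 (TGANTCA) at 0.274 and 0.218 and FOXA (TGTTTAC) at 0.212 and 0.159. With matches within 10 bp counted as inside, RUNX had 0.915 and 0.828, GATA 0.493 and 0.541, AP-1 0.628 and 0.673, and FOXA 0.608 and 0.604. In shared regions away from promoters, RUNX matches were instead denser in footprints, at 1.45 and 1.43, while GATA, AP-1 and FOXA stayed below 1. Of the motifs shown, most were also denser in footprints of shared regions away from promoters in both libraries. NRF1 had ratios of 6.16 and 5.16 there, CRE 4.52 and 3.96, SP/KLF 2.88 and 2.74, and RFX 2.39 and 2.97. YY1 had 7.98 and 8.84, both above its values in members. Kaiso (1.55 and 1.39) and THAP11/ZNF143 (1.29 and 1.97) rested on 5 or 6 matches in footprints, and the E-box had 1.15 and 1.37. ETS (1.39 and 0.796) and TCF/LEF (1.10 and 0.999) were denser in the replicate 2 library only, and NFY (0.796 and 0.860) in neither. Footprint bases were also richer in G and C than the rest of the regions, 70.4% against 62.0% in the replicate 2 library and 69.8% against 62.3% in the replicate 1 library. The part of base composition in the ratios was not tested.

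**Figure D1:**
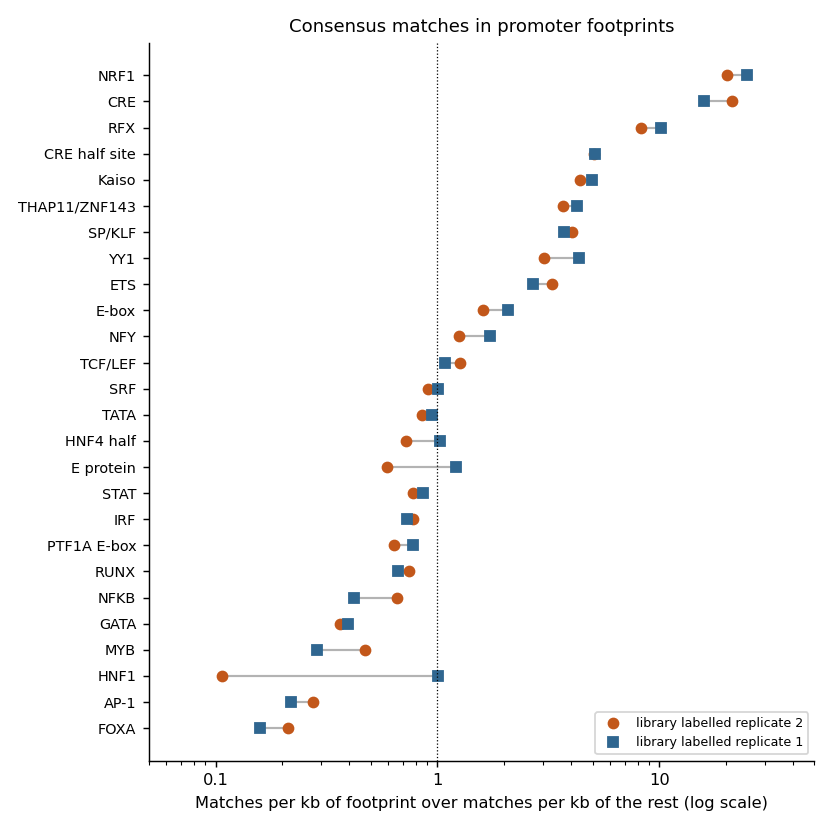
Ratio of motif matches per kb in footprints to matches per kb in the rest of the member regions, for 26 motifs (rows, log axis). Circles are the replicate 2 library and squares the replicate 1 library. NRF1 and CRE lie furthest to the right, above 15 in both libraries, and AP-1 and FOXA furthest to the left among the motifs that are low in both.

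The share of members holding a motif differed from that of other windows of 300 bases. NRF1 was found in 4.34% of members, in 0.961% of the 9677 protein-coding starts without such a region and in 1.07% of the 17091 shared regions away from promoters. For ETS the shares were 14.7%, 2.89% and 2.91% in the same order, for YY1 2.75%, 0.217% and 0.550%, for Kaiso 1.54%, 0.238% and 0.105%, and for SP/KLF 62.3%, 20.5% and 14.6%. The TATA box, spelled TATAAA, went the other way, with 4.45%, 17.7% and 11.4%, and so did the GATA factor motif with 4.38%, 12.8% and 12.3%. Members also had a higher median GC content in the 1 kb around the midpoint, 58.8% against 47.8% in the shared regions away from promoters. The part of base composition in these shares was not tested. NFY was in 32.3% of members, against 37.7% of the other starts, although its matches in members were denser inside footprints than outside. Matches in a footprint of both libraries lay mostly just upstream of the start, with a median position of -37 bp for NRF1, -48 bp for SP/KLF, -67 bp for NFY and -16 bp for ETS. YY1 was the exception among the 11 motifs shown, with a median of 10 bp downstream. The printed Eif3e stretch, 28 bp downstream of the start, is such a match.

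Signals were ranked within each library, because no source used here gives the scaling of the deposited signal. The percentile of a region is the percentage of all peaks in the same library's list with a signal at or below that of its strongest peak. Members had a median percentile of 79.7 in the replicate 2 library (quartiles 53.6 and 91.8) and 83.2 in the replicate 1 library (quartiles 61.2 and 93.5). The 17091 shared regions away from promoters had medians of 52.1 and 61.9. Promoter regions open in the replicate 2 library alone (5743) had a median of 36.0, and those open in the replicate 1 library alone (11764) a median of 38.4. The median deposited signal of members was 4.90 in the replicate 2 library and 3.49 in the replicate 1 library. Members were also wider, with a median of 281 bp against 200 bp away from promoters.

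CpG content went with rank among the members. A region was called CpG-rich when the 1 kb around its midpoint had a GC content above 50% and an observed-over-expected CpG ratio above 0.6. This held for 11945 members (65.9%), against 4.15% of shared regions away from promoters and 23.9% and 27.0% of the promoter regions open in the replicate 2 library alone and in the replicate 1 library alone. CpG-rich members had median percentiles of 86.2 in the replicate 2 library and 88.3 in the replicate 1 library, and the other 6181 members 61.8 and 69.7. Across members, the percentiles of both libraries had a Spearman correlation of 0.819, given as a description over 18126 regions that share their libraries. It was 0.845 over the CpG-rich members, 0.661 over the others and 0.613 away from promoters.

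Rank fell off with distance from the start. The 9900 members with a midpoint within 100 bp of a start (54.6%) had medians of 87.0 and 89.5, in the replicate 2 library and the replicate 1 library. The 369 members just inside the limit, more than 900 bp from a start, had 51.1 and 62.1. The 321 shared regions just outside it, at up to 1100 bp, had 55.3 and 63.6. Members with starts on both strands (3877, 21.4%) had 86.5 and 89.0, against 77.2 and 81.1 for those with starts on 1 strand. The 528 members on the X chromosome stood lower, at 66.1 and 63.9, against 80.1 and 83.8 on the autosomes. Among CpG-rich members the X medians were 73.7 and 72.3, and the autosomal medians 86.6 and 88.7. The medians of single autosomes ranged only over 75.9 to 82.3 in the replicate 2 library and over 80.6 to 85.6 in the replicate 1 library.

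For 15912 members (87.8%) the nearest start belonged to a protein-coding gene. The 603 members at lincRNA starts (long intergenic noncoding RNAs) had medians of 68.8 and 74.4. The 70 at bidirectional promoter lncRNA starts, which lie head to head with another gene, had 84.5 and 88.8. The 142 at processed pseudogenes, retrotransposed gene copies, had 50.8 and 52.1. The 10 members at variable segments of the T cell receptor genes (TR_V_gene) had 63.2 in the replicate 2 library and 18.4 in the replicate 1 library.

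**Figure D2:**
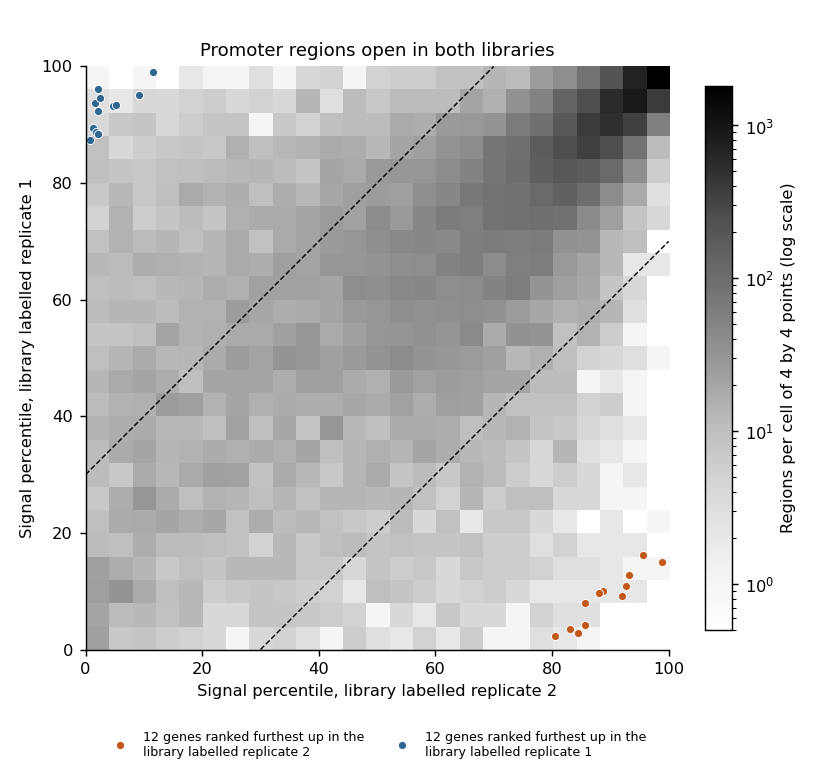
Signal percentile of the 18126 members in the replicate 2 library (horizontal) and the replicate 1 library (vertical). Grey cells give the number of regions per cell of 4 by 4 percentile points on a log scale, dashed lines the limit of 30 points. Circles mark the 12 genes with the largest difference in each direction. The cells with the most regions lie in the upper right corner, and 5524 of the 18126 regions have a mean percentile of 90 or more.

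Footprints were as many in members of the replicate 2 library as in those of the replicate 1 library. A member held a median of 5 footprints in each library, against 3 in each away from promoters. Per kb of region the counts were 13.8 and 13.8 in members, and 14.0 and 13.3 away from promoters, so the larger count per region went with the larger width. Members held 88181 footprints of the replicate 2 library (32.6% of its list) and 88084 of the replicate 1 library (27.8% of its list). Of these, 63.8% and 66.4% overlapped a footprint of the other library. Footprints covered 21.8% and 20.1% of the members' bases, and 7.70% and 8.97% of the members held none.

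Around the starts the footprints were dense over a broad stretch with several local maxima. Counted by their midpoints in steps of 20 bp, they were densest from -20 to 0 bp, with 272 per 1000 members in the replicate 2 library and 281 in the replicate 1 library. A second maximum of 266 and 279 lay from -60 to -40 bp, with 248 and 259 between them. At 100 to 120 bp downstream there were 110 and 104, and at -200 to -180 bp 99.7 and 98.7. The share of members whose region reached a position followed a like course, with a highest value of 68.4% from -40 to -20 bp.

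**Figure D3:**
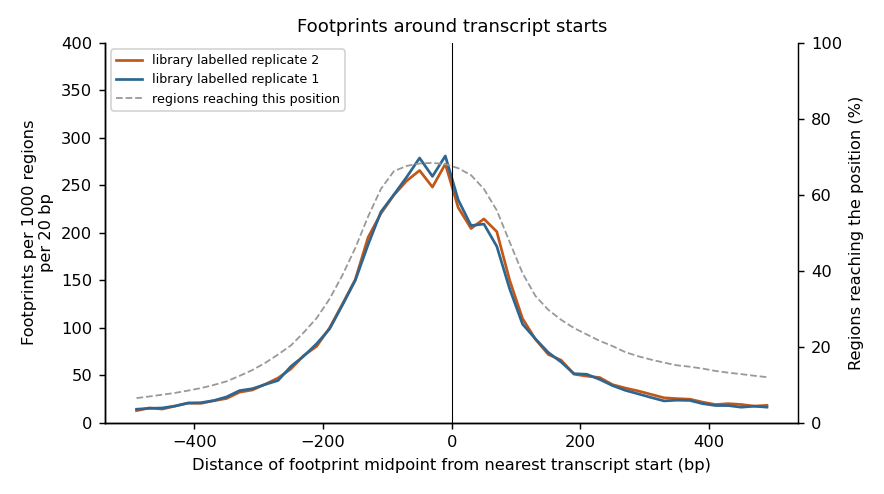
Footprints per 1000 members in steps of 20 bp, by the distance of the footprint's midpoint from the nearest transcript start (left axis), in both libraries. The dashed line gives the percentage of members whose region reaches the position (right axis). Both libraries have their highest value from -20 to 0 bp, 272 and 281.

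The extent of strong cutting was read from the deposited FDR tables as the number of bases with an FDR under 0.001 in the 2001 bp around the midpoint. The median was 1016 bases in the replicate 2 library and 1169 in the replicate 1 library for members, and 281 and 309 away from promoters. CpG-rich members had 1155 and 1280, the others 690 and 841.

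Of the 10 members with the highest mean percentile, 6 had a protein-coding gene nearest. Hjurp (ENSMUSG00000044783.16), the chaperone that loads the centromere histone CENP-A, had a region on chromosome 1 at 88277501 to 88277760 with signals of 45.4 and 23.6 in the replicate 2 library and the replicate 1 library. Mplkip had 46.01 and 20.2, Myo10, an unconventional myosin, 46.6 and 18.8, and the nuclear pore genes Nup153 and Nup107 had 37.7 and 20.7, and 36.4 and 19.0. Dynlt1b, a dynein light chain gene with near-identical neighbours, had 91.5 and 22.7. Its central 50 bases occurred 1 time in the assembly, but its value is uncertain where reads from neighbouring copies fit. At Gm42418, a lincRNA, and Gm23935, a miRNA gene, the central 50 bases occurred 2 and 4 times in the assembly, so their signals of 93.3 and 117, and 42.4 and 39.5, are uncertain in the same way. The Mplkip region is shown as the strongest single-copy promoter of a protein-coding gene with little untranslated sequence, outside the Dynlt1 family. Capitals mark the footprints of each library as above.
Mplkip, library labelled replicate 2, chr13:17694921-17695080, plus strand: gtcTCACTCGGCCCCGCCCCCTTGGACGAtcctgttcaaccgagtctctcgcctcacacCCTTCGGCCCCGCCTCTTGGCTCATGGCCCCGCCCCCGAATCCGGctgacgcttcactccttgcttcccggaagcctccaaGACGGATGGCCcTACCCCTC
Mplkip, library labelled replicate 1, chr13:17694921-17695080, plus strand: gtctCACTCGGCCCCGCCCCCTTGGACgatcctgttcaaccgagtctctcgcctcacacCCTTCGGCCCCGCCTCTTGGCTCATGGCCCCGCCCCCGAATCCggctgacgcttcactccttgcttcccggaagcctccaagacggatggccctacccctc

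The Mplkip stretch, in an annotated intron, had 90 footprint bases in the replicate 2 library and 66 in the replicate 1 library, and all 66 were shared. It holds 2 separate SP/KLF matches, at 255 and 180 bp upstream of the start, both in footprints of both libraries. An ETS match at 142 bp upstream lay in no footprint of either library.

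Of 21911 protein-coding genes, 12234 (55.8%) had a promoter region open in both libraries. Each open gene was represented by its strongest region, which may lie at a start inside the gene. The medians of the open genes were 88.8 in the replicate 2 library and 91.1 in the replicate 1 library. Most lists of widely used genes were open more often than this and ranked higher. Of 33 gene lists, 20 had a median of the mean percentile at or above that of all open genes. The lists were compiled with earlier results of these data known, and no list was tested.

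Protein synthesis genes were open nearly throughout. Among cytosolic ribosomal protein genes 82 of 86 were open, with medians of 93.3 and 94.96 in the replicate 2 library and the replicate 1 library, and the 4 not open were Rpl10l, Rpl39l, Rpl3l and Rps27rt. Rplp0, which encodes a protein of the ribosomal stalk, had signals of 29.4 and 14.8 (percentiles 99.9 and 99.9). Its region lies on chromosome 5 at 115559261 to 115559500. All 37 aminoacyl-tRNA synthetase genes, which charge transfer RNAs, were open at 91.1 and 95.6, and 49 of 51 translation initiation factor genes at 92.9 and 95.5. The chaperone list, with 34 of 37 open, had the highest medians of the 33, at 96.1 and 97.6. Within it the heat shock genes Hspa8 and Hsp90ab1 had 29.2 and 11.3, and 27.6 and 11.0.

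Genes of RNA processing, secretion and division were also open nearly throughout. Splicing factor genes were open in 69 of 72 cases, at 95.2 and 96.1, and secretory pathway genes in 62 of 63, at 95.03 and 97.1. In DNA replication 52 of 53 were open, at 94.4 and 96.0, and in mitosis 40 of 40, at 92.2 and 93.2. Pold1, the catalytic subunit of DNA polymerase delta, had 32.7 and 13.9, and Ncapg, a condensin subunit, 28.0 and 12.6. Mitochondrial ribosomal protein genes were all open (78 of 78), at 89.4 and 94.0, and oxidative phosphorylation genes in 91 of 98 cases, at 92.9 and 94.5. In none of the ribosomal, synthetase, splicing, secretory, DNA replication, mitosis, proteasome, initiation factor, oxidative phosphorylation, cholesterol synthesis and Mediator and RNA polymerase II lists did a gene differ by more than 30 percentile points between the libraries, against 2.66% and 5.99% of all open genes past it toward the replicate 2 library and the replicate 1 library. In each of these lists the median of the mean percentile was above 90, where such a gap cannot arise. The count thus says little about the higher-ranked part of each list. The chaperone list ranked higher still but held 1 such gene of 34, Dnaja4, with percentiles of 34.4 and 74.8.

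Other lists of widely used genes stood lower or held genes that differed. Replication-dependent histone genes were open in 58 of 68 cases but at 81.2 and 83.4, and reads can fit several of these near-identical copies. Zfp-named zinc finger genes, many of which encode transcriptional repressors, were open in 319 of 394 cases at 84.5 and 87.0. Immediate early genes, which respond within minutes to stimuli, were open in 33 of 36 at 93.3 and 93.8, with Jun at signals of 20.4 and 10.2. In that list 3 genes (9.09%) ranked more than 30 points higher in the replicate 1 library, against 5.99% of all open genes. These 3 genes are too few to tell apart from that share. Atf3, a stress-induced factor and 1 of the 3, had 1.02 in the replicate 2 library (percentile 29.5) and 10.9 in the replicate 1 library (percentile 99.5), at an internal start. Chd3, a chromatin remodelling enzyme, had 0.909 (percentile 24.6) and 10.03 (percentile 99.1), also at an internal start. Interferon response genes were open in 33 of 42, at 88.6 and 83.3, with 2 genes (6.06%) past 30 points in each direction. Of all open genes, 2.66% were past it toward the replicate 2 library and 5.99% toward the replicate 1 library, and 2 genes are too few to tell apart from these shares. Tap1 and Psmb9, antigen processing genes of this list, share a promoter region with signals of 24.9 and 10.7.

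**Figure D4:**
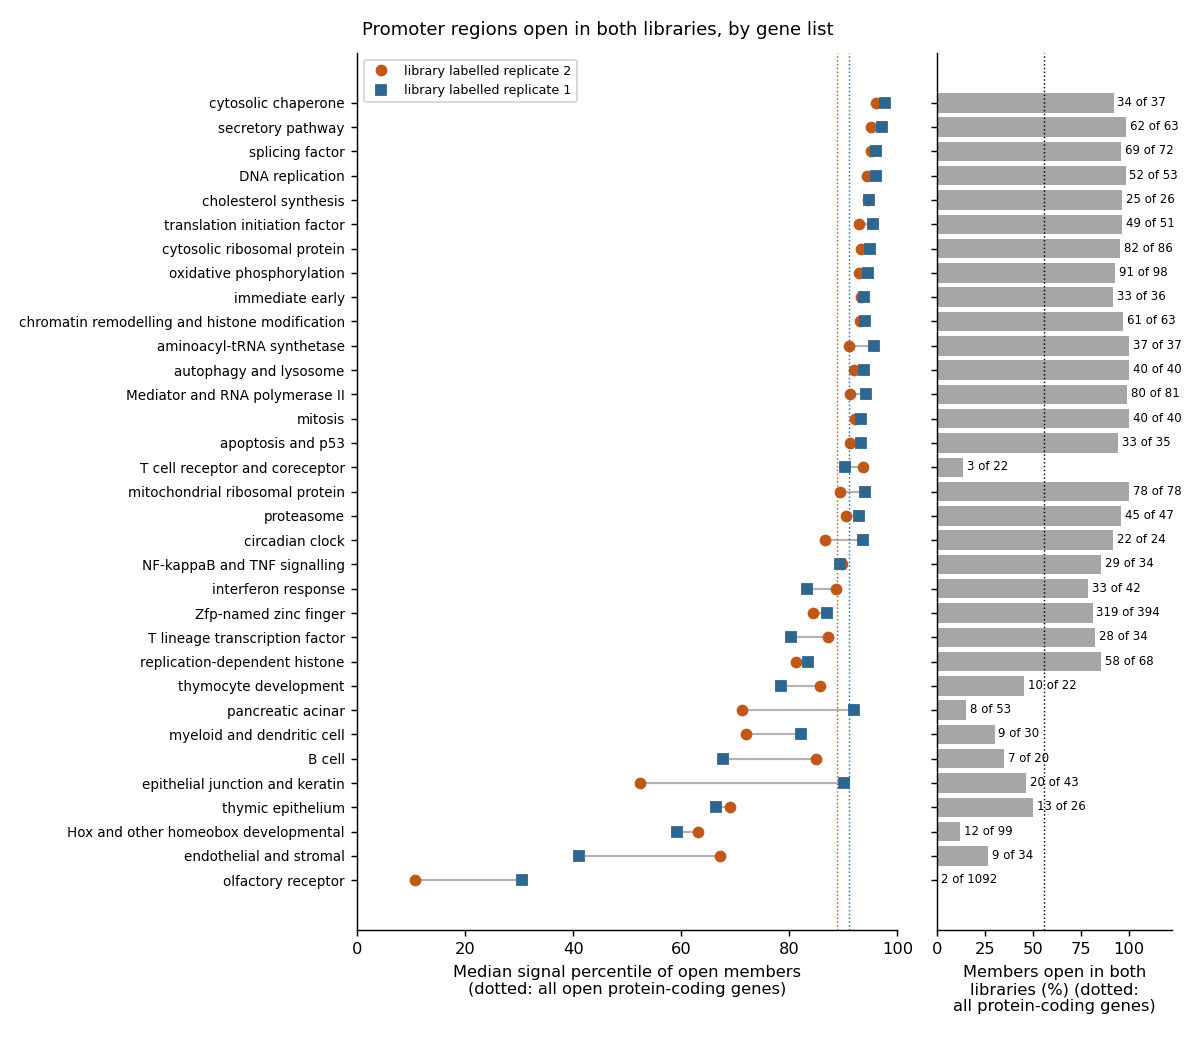
Left, median signal percentile of the open members of each of 33 gene lists (rows), circles for the replicate 2 library and squares for the replicate 1 library, with dotted lines at the medians of all open protein-coding genes (88.8 and 91.1). Right, percentage of each list's genes open in both libraries, with a dotted line at 55.8%. The libraries stand furthest apart for the epithelial junction and keratin list, at 52.3 and 90.1.

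Few genes of the T cell receptor and its coreceptors were open in both libraries, 3 of 22, against 55.8% of all protein-coding genes. The 3 were Lck, the kinase bound to CD4 and CD8, Fyn, a related kinase, and Cd247, the zeta chain of the receptor. Lck had signals of 11.8 and 5.72 in the replicate 2 library and the replicate 1 library (percentiles 93.6 and 93.0). Its region lies 181 bp from an internal start. Fyn had 14.1 and 4.86 (95.8 and 90.2), and Cd247 had 1.45 and 0.933 (43.7 and 36.6) in a region 374 bp from an internal start. Thus Lck and Fyn ranked alike in both libraries while the other 19 genes had no shared promoter region.

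T lineage transcription factor genes were open in 28 of 34 cases (82.4%), against 55.8% of all protein-coding genes, with medians of 87.1 and 80.2. In that list 5 genes ranked more than 30 percentile points higher in the replicate 2 library and 2 in the replicate 1 library, against 2.66% and 5.99% of all open genes. Ikzf1, which encodes the lymphoid factor Ikaros (ENSMUSG00000018654.17), had a signal of 9.34 in the replicate 2 library (percentile 90.4) and 0.533 in the replicate 1 library (percentile 15.0). Its region on chromosome 11 at 11685981 to 11686294, 76 bp from an internal start, held 5 footprints and 0. Lef1, Satb1, Runx3 and Ikzf3 were the others, with percentiles of 84.3 and 26.7, 85.9 and 30.002, 67.1 and 14.6, and 84.2 and 40.4. Lmo2 (14.6 and 50.03) and Zbtb7b, a factor of the helper lineage (68.5 and 98.8), ranked higher in the replicate 1 library. Ets1, a founding ETS factor, was high in both, with signals of 21.6 and 7.495 (percentiles 99.1 and 96.7) at an internal start. Of the thymocyte development list 10 of 22 were open, at 85.7 and 78.5, with S1pr1 (64.7 and 19.1), the receptor for egress from the thymus, and Notch3 (81.7 and 46.5) higher in the replicate 2 library.

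Pancreatic acinar genes were open in both libraries in 8 of 53 cases (15.1%), against 55.8% of all protein-coding genes. All 8 ranked higher in the replicate 1 library, as did 7521 of the 12234 open genes. In 3 of the 8 the gap was over 30 points, against 5.99% of all open genes. Their medians were 71.3 in the replicate 2 library and 92.0 in the replicate 1 library. Rbpjl, a subunit of the acinar transcription complex PTF1, had signals of 2.97 and 6.29 (percentiles 68.3 and 94.5). Bhlha15, which encodes the secretory cell factor MIST1, had 3.78 and 5.97 (74.3 and 93.7), and the elastase gene Cela1 5.10 and 5.21 (80.5 and 91.4). The Cela1 region lies at an internal start. Xbp1, a factor of the unfolded protein response, had 13.0 and 11.6 (94.7 and 99.6), and Foxa3, a forkhead factor of endoderm, 10.2 and 5.57 (91.6 and 92.6). Gata6 (7.81 and 83.2) and Nr5a2 (2.91 and 57.01, at an internal start), both transcription factor genes, were among those that differed by more than 30 points. The Gata6 region held 2 footprints in the replicate 2 library and 22 in the replicate 1 library.

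Genes of epithelial junctions and keratins, which bind epithelial cells to each other, differed most between the libraries. Of the 43 epithelial genes, 20 (46.5%) were open in both, against 55.8% of all protein-coding genes, with medians of 52.3 and 90.1. In 12 of the 20 the rank was more than 30 points higher in the replicate 1 library, against 5.99% of all open genes, and in none in the replicate 2 library. Esrp1, an epithelial splicing regulator, had a signal of 0.586 in the replicate 2 library (percentile 9.18) and 4.97 in the replicate 1 library (percentile 90.6). Tjp1, a tight junction scaffold, had percentiles of 17.3 and 96.3, Dsp, a desmosome protein, 18.4 and 86.8, Krt18, a keratin, 13.1 and 81.0, and Cdh1, E-cadherin, 59.2 and 95.7. Jup and Tjp3 were high in both, at 96.6 and 99.8 and at 97.2 and 96.6, Tjp3 at an internal start.

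Lists of other cells of the thymus were open less often than the 55.8% of all protein-coding genes. Thymic epithelium genes were open in 13 of 26 cases, at 69.1 and 66.5. Ccl25, a chemokine that attracts thymocytes, was high in both (97.4 and 98.2), Aire, which drives expression of tissue antigens, had 81.3 and 46.2, and Il7, a thymocyte growth factor, 4.69 and 66.5. B cell genes were open in 7 of 20, at 84.9 and 67.7. Cr2 (84.9 and 24.5) and Ebf1 (85.3 and 30.002) ranked higher in the replicate 2 library. Blnk (20.6 and 67.7) and Cd22 (53.3 and 88.9, at an internal start) ranked higher in the replicate 1 library. Endothelial and stromal genes were open in 9 of 34, at 67.2 and 41.0, with Vim, the intermediate filament of mesenchymal cells, at 86.8 and 32.4 and with 15 footprints and 2. Myeloid and dendritic cell genes were open in 9 of 30, at 72.0 and 82.2, and none differed by more than 30 points, against 2.66% and 5.99% of all open genes, too few genes to tell apart from those shares. Hox and other homeobox developmental genes were open in 12 of 99, at 63.1 and 59.1. Of 1092 olfactory receptor genes, 2 were open (Olfr557 and Olfr658), at 10.6 and 30.4.

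The rank difference is the percentile in the replicate 2 library minus that in the replicate 1 library. It had a median of -1.69 over the members, with quartiles of -10.2 and 2.55. More than 30 points separated the ranks in 686 members (3.78%) that were higher in the replicate 2 library and in 1690 (9.32%) that were higher in the replicate 1 library. With percentiles taken among the members alone these counts were 675 and 930, so the split depends on which peaks the ranks are taken from. Among genes they were 325 (2.66%) and 733 (5.99%). The CpG-rich members were past the limit in 2.87% and 6.51%, and the others in 5.55% and 14.8%. No member with a mean percentile of 90 or more was past it, since ranks with so high a mean cannot lie that far apart.

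Footprints and the FDR tables are other files of the same libraries, so they are not an independent check on the ranks. Both moved with the ranks. Members higher in the replicate 2 library held a median of 5 footprints there and 2 in the replicate 1 library, and members higher in the replicate 1 library held 2 and 4 in the same library order. The median number of bases with a low FDR was 1040 and 571 in the first set, and 572 and 1210 in the second.

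Itga4, the alpha-4 integrin subunit of lymphocyte adhesion (ENSMUSG00000027009.18, chromosome 2, plus strand, 79255426 to 79333123), had the largest difference toward the replicate 2 library among protein-coding genes. Its region, centred 106 bp upstream of the start, had a signal of 20.5 (percentile 98.8) in the replicate 2 library and 0.533 (percentile 15.0) in the replicate 1 library. It held 6 footprints and 2. In the printed stretch an SP/KLF match at 111 bp upstream lay in a footprint of the replicate 2 library only, and the E protein motif (CAGCTG) a few bases further upstream in a footprint of both. St8sia4, a polysialyltransferase, followed with signals of 10.6 and 0.431 (percentiles 92.1 and 9.204). Prkcb, a protein kinase C, had 11.2 and 0.463 (92.8 and 10.9), with 5 footprints and 0.

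The rest of the 12 were Susd4, Dock10, Chst10, Rftn1, Rasgrp1, Casp8, Crispld2, Msn and Adcy3. Dock10, a guanine nucleotide exchange factor, had percentiles of 84.4 and 2.88 and 6 footprints and 0. Rftn1, the raft protein raftlin, had 83.1 and 3.53, with 5 footprints and 0. Rasgrp1, which links the T cell receptor to Ras, had 95.7 and 16.3 in a region 455 bp downstream of a start. Msn, which encodes the membrane linker moesin, had 80.5 and 2.26. Casp8, an initiator caspase of cell death, had 88.8 and 10.1 in a region 39 bp upstream of an internal start, while its strongest region, on chromosome 1 at 58795521 to 58795840, had 32.7 and 73.5, the opposite order.

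Toward the replicate 1 library, Atp8b1, a phospholipid flippase of epithelial membranes, had the largest difference, with signals of 0.393 in the replicate 2 library and 7.10 in the replicate 1 library (percentiles 2.17 and 96.1) and 2 footprints and 13. Bcl9l, a cofactor of beta-catenin (ENSMUSG00000063382.6, chromosome 9, plus strand, 44482825 to 44511896), had 0.362 and 5.99 (1.65 and 93.8) in a region centred 473 bp downstream of an internal start. Zfp37, a zinc finger gene, had 0.478 and 5.79 (4.69 and 93.2) with 1 footprint and 6, in a region 54 bp upstream of an internal start. Mtnr1a, a melatonin receptor, had 0.640 and 9.89 (11.6 and 99.1), and Tfcp2l1, a transcription factor of epithelial ducts, 0.586 and 6.51 (9.18 and 95.02). Sh2d4a, Ccdc68, Parva, Rab27b, Mtus1, Fign and Snx7 made up the rest of the 12, with percentiles of 0.838 to 5.20 in the replicate 2 library and 87.4 to 94.5 in the replicate 1 library. In each of the 24 genes except Crispld2, which had 3 footprints in each library, the library with the higher rank also had more footprints. Ranks and footprints of the same library are not independent of each other.

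**Figure D5:**
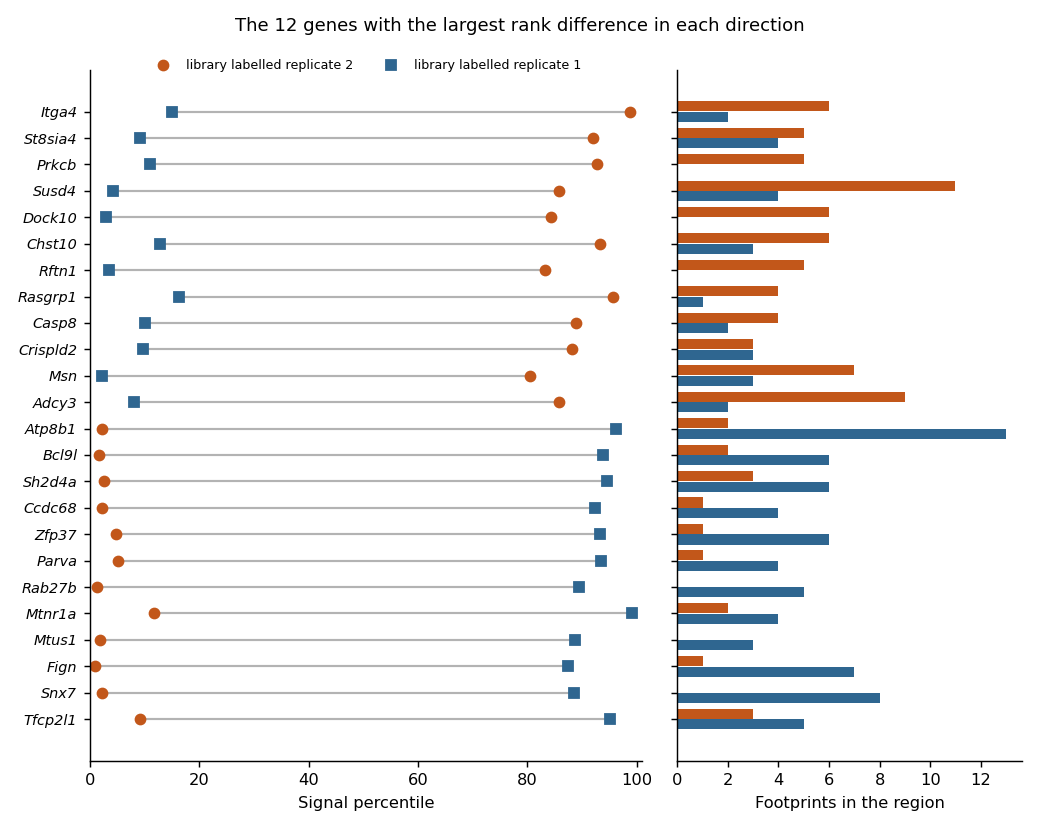
Left, signal percentile of the 12 genes with the largest rank difference in each direction (rows), circles for the replicate 2 library and squares for the replicate 1 library. Right, number of footprints in the same regions, upper bars for the replicate 2 library and lower bars for the replicate 1 library. Itga4 has 98.8 and 15.0 with 6 and 2 footprints, and Bcl9l 1.65 and 93.8 with 2 and 6.

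Members past the limit held the NRF1, ETS and YY1 motifs less often than members with ranks within 10 points of each other (11233 regions), as counted and without a test. These classes also differ in level. Members higher in the replicate 2 library had a median of the mean percentile of 48.4, those higher in the replicate 1 library 48.5 and those within 10 points 89.5, and the part of level in the shares was not tested. NRF1 was in 1.90% of members higher in the replicate 2 library (Wilson 95% interval 1.11 to 3.22), in 0.828% of those higher in the replicate 1 library (0.494 to 1.39) and in 5.93% of those within 10 points (5.51 to 6.38). ETS was in 8.31%, 4.73% and 19.1% in the same order, and YY1 in 0.437%, 0.296% and 3.96%. Among CpG-rich members alone the shares were 2.33%, 1.16% and 6.82% for NRF1, and 8.75%, 4.88% and 21.5% for ETS. An E-box that PTF1A, a factor of acinar cells, can bind (CACCTG) was in 25.4%, 29.5% and 19.0% of all members of these classes. The E protein motif (CAGCTG) was in 22.6%, 22.1% and 15.1%. Within CpG-rich members the PTF1A E-box was in 20.4% (Wilson 95% interval 16.5 to 24.99), 30.2% (27.1 to 33.5) and 17.0%. Within the others the PTF1A E-box was in 30.3% (25.7 to 35.4), 28.8% (25.99 to 31.9) and 25.3%. There the intervals of the first 2 classes overlap, so these counts do not set their order. RUNX was in 13.4%, 12.5% and 10.9% of all members, in 9.33%, 7.71% and 9.08% of the CpG-rich ones and in 17.5%, 16.6% and 16.5% of the others. The intervals cover counting of regions only, and neighbouring regions are not independent.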

How the data were processed

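The authors' deposited peak lists give a signal per peak, and the shorter of 2 lists per library was used (60644 and 85367 peaks for replicates 2 and 1). The deposited FDR tables hold an FDR, read as an adjusted p-value, for each interval. The deposited footprint lists (270843 and 316358 footprints) hold a score of 0.01 in every row, which ranks nothing. The build is mm10, per the submitters' processing notes. How signals were scaled, and with which aligner, callers and thresholds the lists were made, remains not given in the sources used here. No read counts were used, so depth is unknown.

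Python 3.11.15, numpy 2.4.6 and pandas 2.3.3 merged the peaks, ranked the signals, assigned footprints and motif matches by their midpoints, and counted each of 21911 protein-coding gene symbols once. Merging, ranking, distances and motif search were tested on simulated data. Sequences came from RefSeq's copy of GRCm38. With 1 group, no test was made. The members, the 33 gene lists and the 26 motifs were chosen with earlier results of these data known.

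Named genes were, per list, up to 3 with the highest mean percentile and the 1 with the largest rank difference, the 12 genes with the largest difference in each direction, the 10 strongest regions, 1 region per motif, and all open receptor and acinar genes, of which a selection is given. Lef1, Satb1, Runx3, Ikzf3, Lmo2, Zbtb7b, Notch3, Tjp1, Dsp, Krt18, Cdh1, Aire, Ebf1 and Blnk were picked after their values were seen. Printed stretches leave out chromosome 18, the Dynlt1 family and those with over 30 untranslated bases.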

Additional observations from a re-analysis of the deposited data

How the results depend on the processing

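The number of members was 18126, and it was 25374 to 31852 with the promoter peaks of 1 library alone. It stayed within 1.5 times with promoter windows of 500 and 2500 bp, the longer peak lists, the stronger 50% of the peaks or an overlap of at least 50% of both peaks. The mean of the libraries' median percentiles was 81.4. It was 84.7 with the 500 bp window, 78.2 with the 2500 bp window, 77.0 with the stronger 50% of the peaks and 84.3 with the stricter overlap, and 65.6 to 68.9 with 1 library alone. Members more than 30 percentile points higher in the replicate 2 library numbered 686, and 424 with the stricter overlap. Those higher in the replicate 1 library numbered 1690, and 1003 with the stronger 50% of the peaks, 1113 with the stricter overlap and 930 with percentiles among the members alone. Footprints per member averaged 4.86, and 4.75 when only those lying whole within the region counted. The mean footprint ratio of TCF/LEF was 1.17, and 0.828 when matches within 10 bp of a footprint counted as inside. Under the same setting the mean ratio was 14.1 for NRF1 (22.4 otherwise), 4.79 for RFX (9.22), 6.08 for THAP11/ZNF143 (3.99), 0.651 for AP-1 (0.246), 0.606 for FOXA (0.185), 0.940 for NFKB (0.539), 0.582 for MYB (0.379) and 0.614 for SRF (0.953). The cause of these shifts was not tested. The count of 20 gene lists at or above the median of all open genes was 19 in each library alone. The circadian clock list lay below in the replicate 2 library, and the T cell receptor and NF-kappaB lists in the replicate 1 library, where the acinar list lay above. A rank difference cannot be made from 1 library.

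Without read counts, a region missing from a list cannot be told from one too shallow to be called. Promoter peaks at cell type markers differed between the libraries, and each deposited signal is an average over all cells of its library. No paired analysis was possible because the series has 1 group, so no replicate number is shared between groups.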
